A study of Mus musculus with 30 samples.

Results

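The genes of cholesterol and fatty acid synthesis were followed in 2 mouse blood progenitor cell lines that carried an empty retroviral vector, wild-type STAT3 or the mutant STAT3 Y640F. The set was chosen by name, with earlier results of these data known, so the shares of all genes set beside it are a description. Its 35 genes of the pathway were looked up by gene symbol among the 50686 genes in each count file, and all 35 were found. It holds 7 genes of the mevalonate steps, 11 of the squalene and sterol steps, 5 of the SREBP regulators, 1 sterol carrier, 8 of fatty acid synthesis, elongation and desaturation, and 3 targets of the sterol-sensing receptors called LXR. RNA sequencing covered 18 libraries in 6 groups of 3: HPCLSK with STAT3 Y640F, with STAT3 and with the dsRed empty vector (EV), and HPC7 with the same 3 vectors. The RNA labels give the strain C57BL/6N for HPCLSK and 129SV for HPC7, and no treatment. Both are labelled as haematopoietic stem or progenitor cells, both were grown in medium with stem cell factor (SCF), and HPCLSK was grown on agarose-coated plates. No label says how many clones or separate transductions stand behind a group, and the series text calls the replicates technical, so every p-value measures only the spread between such libraries. STAT3 is a transcription factor that cytokine receptors switch on, and Y640F replaces a tyrosine of the SH2 domain, an activating mutation known from leukaemia of large granular lymphocytes.

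Cholesterol is built from acetyl-CoA through mevalonate, farnesyl pyrophosphate, squalene and lanosterol, and fatty acids are built from the same starting molecule through malonyl-CoA. When sterol in the endoplasmic reticulum runs low, the escort protein SCAP carries the transcription factors SREBP1 and SREBP2 to the Golgi, where they are cut and freed to switch on these genes, while INSIG proteins hold SCAP back when sterol is plentiful. When oxidised sterols build up, LXR with its partner RXR switches on genes of sterol export (Abca1, Abcg1), of receptor turnover (Mylip) and of fatty acid desaturation. Dividing cells draw on both routes for new membrane, and macrophages are known for strong LXR-driven export.

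The stretch before the start of a gene is where SREBP and its partner NF-Y are known to bind, so 250 bases upstream of each annotated start were read from RefSeq promoter sequences (GRCm38.p6). Windows were matched by symbol for 27 of the 35 members, which gave 35 windows since some genes have several starts. Hmgcs1 (chr13:119690101-119690350, plus strand), Mvd (chr8:122443423-122443672, minus strand), Hsd17b7 (chr1:169969206-169969455, minus strand), Ebp (chrX:8193513-8193762, minus strand) and Abca1 (chr4:53159896-53160145, minus strand) are printed because their RNA levels carry the results below or because a motif was found in few other members. Each runs 5′ to 3′ along the gene's own strand and ends at the base before the start, with capitals for the motifs searched.
Hmgcs1: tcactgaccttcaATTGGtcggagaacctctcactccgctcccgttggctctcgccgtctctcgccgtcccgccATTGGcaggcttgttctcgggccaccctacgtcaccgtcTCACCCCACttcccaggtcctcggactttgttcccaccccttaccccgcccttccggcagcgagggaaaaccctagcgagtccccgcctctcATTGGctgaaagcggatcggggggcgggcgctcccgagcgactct
Mvd: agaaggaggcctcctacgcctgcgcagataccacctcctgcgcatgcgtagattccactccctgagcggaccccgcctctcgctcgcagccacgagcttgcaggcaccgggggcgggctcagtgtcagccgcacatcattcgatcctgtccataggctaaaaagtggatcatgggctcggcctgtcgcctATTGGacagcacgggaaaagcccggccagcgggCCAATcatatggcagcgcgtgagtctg
Hsd17b7: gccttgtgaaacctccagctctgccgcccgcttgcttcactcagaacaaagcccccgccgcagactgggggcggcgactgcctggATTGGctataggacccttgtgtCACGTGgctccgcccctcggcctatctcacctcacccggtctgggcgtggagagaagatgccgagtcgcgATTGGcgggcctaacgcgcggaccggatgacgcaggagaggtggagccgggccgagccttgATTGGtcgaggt
Ebp: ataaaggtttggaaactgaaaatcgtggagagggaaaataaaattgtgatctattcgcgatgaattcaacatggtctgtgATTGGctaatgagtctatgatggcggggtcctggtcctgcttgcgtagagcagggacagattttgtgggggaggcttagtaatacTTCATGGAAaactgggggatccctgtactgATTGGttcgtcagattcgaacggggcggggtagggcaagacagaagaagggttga
Abca1: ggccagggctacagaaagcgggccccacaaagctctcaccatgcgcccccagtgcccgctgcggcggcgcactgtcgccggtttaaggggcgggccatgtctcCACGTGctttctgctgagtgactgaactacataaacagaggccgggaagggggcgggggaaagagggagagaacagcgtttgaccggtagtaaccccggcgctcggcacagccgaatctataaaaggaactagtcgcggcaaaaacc
Motifs were searched as letters on both strands, with N for any base. The NF-Y box CCAAT stood in 21 of the 35 windows, 60.0%, and in 20 of the 27 members, against 35.5% of the windows of all tested genes and 33.8% of all windows. The SREBP motif TCACNCCAC stood in the window of Hmgcs1 alone, 137 bases before the start, which is 2.86% of the members' windows against 0.967% of the windows of tested genes. The E-box CACGTG stood in 6 windows, 17.1% against 8.06%, among them those of Hsd17b7 and Abca1. The STAT motif TTCNNNGAA stood in the window of Ebp alone, 2.86% against 6.02%. The exact LXR motif (AGGTCA, 4 of any base, AGGTCA) stood in none, in 0 of the 12725 windows of tested genes and in 0.0152% of all windows. A search for exact letters misses every SREBP or LXR site that departs from them, so it does not tell which windows hold such sites. No match overlapped a match of another motif in these windows, and in Fasn a CCAAT on each strand shared bases. A match describes letters, not a bound site.

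Libraries held 9537258 to 38556669 counts assigned to genes. The file headers place all HPC7 libraries in one sequencing run and all HPCLSK libraries in another, so line, strain label and run cannot be told apart in any comparison of the lines. Levels are given as CPM, counts relative to library size, scaled by the TMM factors of all 18 libraries, and differences are log2 fold changes with their standard error (SE) from edgeR's quasi-likelihood test. A gene that passed has a Benjamini-Hochberg adjusted p under 0.05 over all genes tested, rose or fell is written only of such a gene, and a called gene also changed at least 2-fold. Changes given with no unit are log2 fold changes. Stat3, whose counts add the vector's copy to the cell's own, averaged 1900 ± 44.98 CPM in HPCLSK Y640F, 599 ± 42.2 in HPCLSK STAT3 and 354 ± 12.4 in HPCLSK EV (SD, n = 3 each), and 669 ± 20.9, 996 ± 17.1 and 225 ± 10.1 CPM in HPC7 Y640F, STAT3 and EV. The Y640F cells thus held more Stat3 RNA than the STAT3 cells in HPCLSK and less in HPC7. The progenitor receptor Kit averaged 259 to 743 CPM across the HPCLSK groups and 1281 to 1572 CPM across the HPC7 groups, and the pan-leukocyte gene Ptprc was present in all 6. Of 6 stromal and epithelial markers, Pecam1, which blood progenitors also express, stood at 89.8 to 151 CPM and the other 5 averaged at most 2.54 CPM in any group.

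Libraries of 2 groups went against their own replicates. In HPCLSK EV, replicate 1 lay above both other replicates for 33 of the 35 members, and in HPCLSK Y640F replicate 1 lay below both others for 33 of 35, so that both move toward the other group. Over all genes, the chi-square of the counts per degree of freedom was 8.06 to 27.04 in the pairs that hold one of these libraries and 2.49 to 3.3 between replicates 2 and 3 of the same groups. HPC7 EV was also wide, at 10.29 to 20.19 in its 3 pairs, and the pairs of the other 3 groups lay at 3.17 to 6.36. The HPCLSK results are therefore given with all libraries and, in a paragraph of their own, without both. Since each of the 2 lies toward the other group in the members' own values, leaving both out widens the members' differences by construction, and the values without them are a description.

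Among the members, levels per length (RPKM, CPM per kilobase of exon) placed Scd2, a desaturase that turns saturated into monounsaturated fatty acyl-CoA, first in 5 of the 6 groups, and Acly, which makes cytosolic acetyl-CoA from citrate, first in HPCLSK STAT3. Scd2 stood at 281 RPKM in HPCLSK Y640F, 71.4 in HPCLSK STAT3 and 109.5 in HPCLSK EV, and at 534, 379 and 390.4 RPKM in HPC7 Y640F, STAT3 and EV. At the low end were Scd1, the close relative of Scd2, and Abca1, both under 1 CPM in every HPC7 group. In HPCLSK, 34 members exceeded 10 CPM with Y640F and 32 with STAT3 or EV, and in HPC7 32 did in each group.

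In HPCLSK, Y640F was accompanied by higher RNA of most of these genes. Against EV, 19 of the 35 members rose and 1 fell, where 30.5% of all tested genes rose and 27.8% fell, and 5 were called higher and 0 lower, where 9.57% and 6.56% of all tested genes were called. Against STAT3, 18 rose and 1 fell, where 28.4% and 25.2% of all tested genes did, and 7 were called higher and 0 lower, where 8.09% and 6.09% were. The members' median log2 fold change was 0.47 against EV and 0.55 against STAT3, beside medians near 0 over all tested genes. Of the 18 enzymes that lead to cholesterol, 11 rose against EV and 0 fell. Both comparisons share the Y640F libraries, so the counts are not independent of each other. In bulk RNA, fewer cells of a type and less RNA per cell cannot be told apart.

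**Figure D1:**
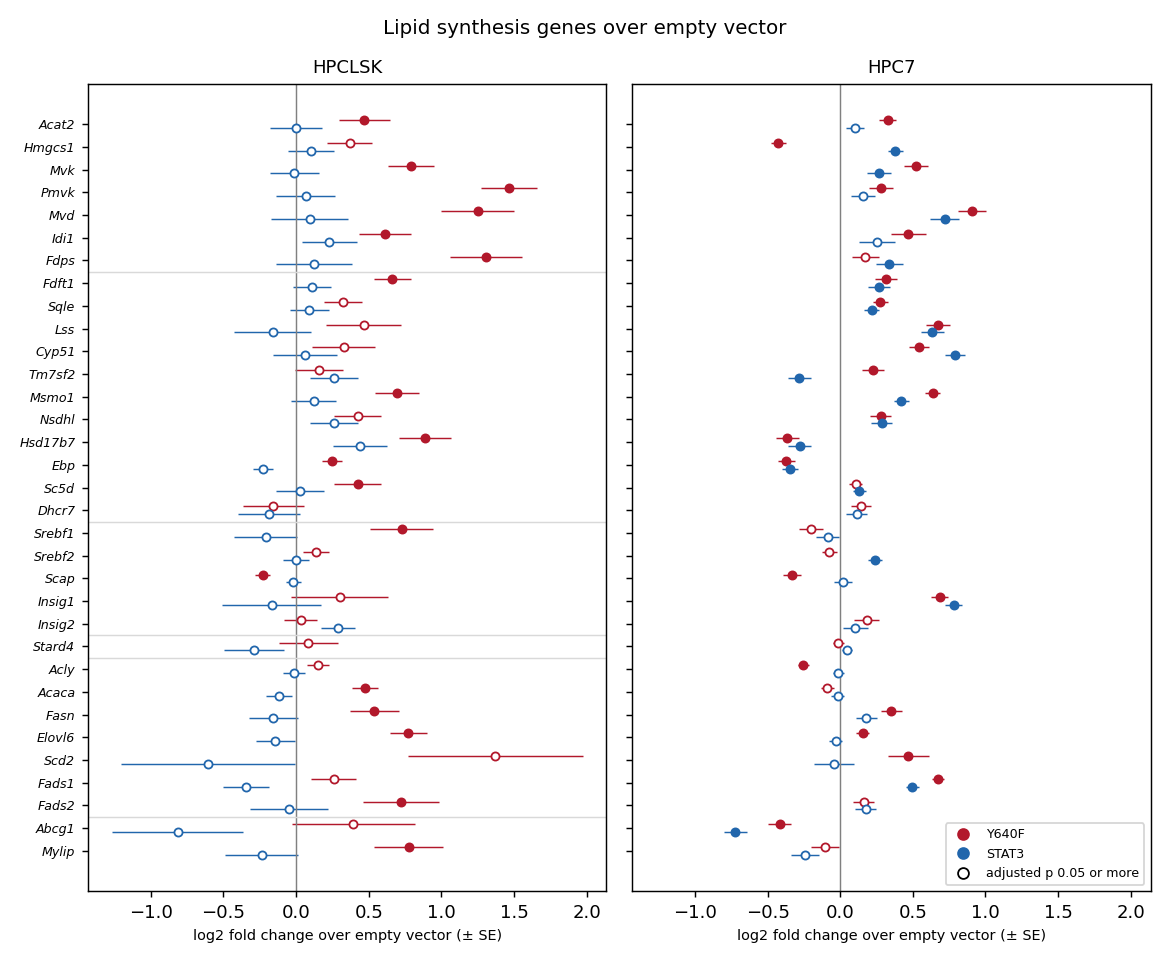
Log2 fold change over empty vector (horizontal axis, ± SE) of 33 members in HPCLSK (left) and HPC7 (right), grouped by role from mevalonate steps at the top to LXR targets at the bottom. Red marks are Y640F and blue marks STAT3, filled where adjusted p was under 0.05, and Scd1 and Abca1 are left out because they were not tested in HPC7. In HPCLSK the red marks lie right of 0 for most genes and every blue mark is open, while in HPC7 red and blue marks are mostly filled.

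Of the mevalonate steps, 6 of 7 genes rose against EV and 5 of 7 against STAT3. Pmvk, the kinase that makes mevalonate pyrophosphate, had 60.6, 73.1 and 84.1 CPM in the 3 Y640F libraries, 27.98, 29.5 and 25.1 in the STAT3 libraries and 35.8, 22.6 and 22.1 in the EV libraries. Mvd, the decarboxylase that makes the first isoprene unit, had 34.7, 47.98 and 53.4 CPM with Y640F, 19.3, 22.7 and 18.8 with STAT3 and 27.6, 15.02 and 15.9 with EV. Fdps, which joins isoprene units to farnesyl pyrophosphate, had 40.5, 52.9 and 62.9 CPM with Y640F, 25.3, 24.4 and 18.9 with STAT3 and 29.7, 18.6 and 16.2 with EV. For all 3 genes every Y640F library lay above every STAT3 and EV library, with EV replicate 1 the highest of its group and Y640F replicate 1 the lowest of its own. By edgeR's quasi-likelihood test, the log2 fold change over EV was 1.47 ± 0.20, adjusted p = 0.000263 for Pmvk, 1.25 ± 0.25, adjusted p = 0.00303 for Mvd and 1.31 ± 0.25, adjusted p = 0.00235 for Fdps, and all 3 stayed called whichever library was left out. Over STAT3 it was 1.40 ± 0.20, 1.16 ± 0.25 and 1.19 ± 0.25, and all 3 were called there too. Acat2, which condenses acetyl-CoA units and has a near-identical mouse copy that could share its reads, had 33.8, 39.1 and 46.1 CPM with Y640F, 30.98, 30.6 and 24.1 with STAT3 and 36.7, 24.02 and 26.6 with EV. It rose by 0.47 over EV (adjusted p = 0.0422), although the groups overlapped. Mvk, the kinase before Pmvk, rose by 0.79 (adjusted p = 0.00189), and Idi1, the isomerase of isoprene units, by 0.61 (adjusted p = 0.0113). Hmgcs1, which makes the substrate of the rate-limiting step, had 167, 203 and 204 CPM with Y640F, 147, 174 and 158 with STAT3 and 188, 124 and 138 with EV, groups that overlapped, and its difference from EV did not pass (0.37 ± 0.16, adjusted p = 0.0727).

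**Figure D2:**
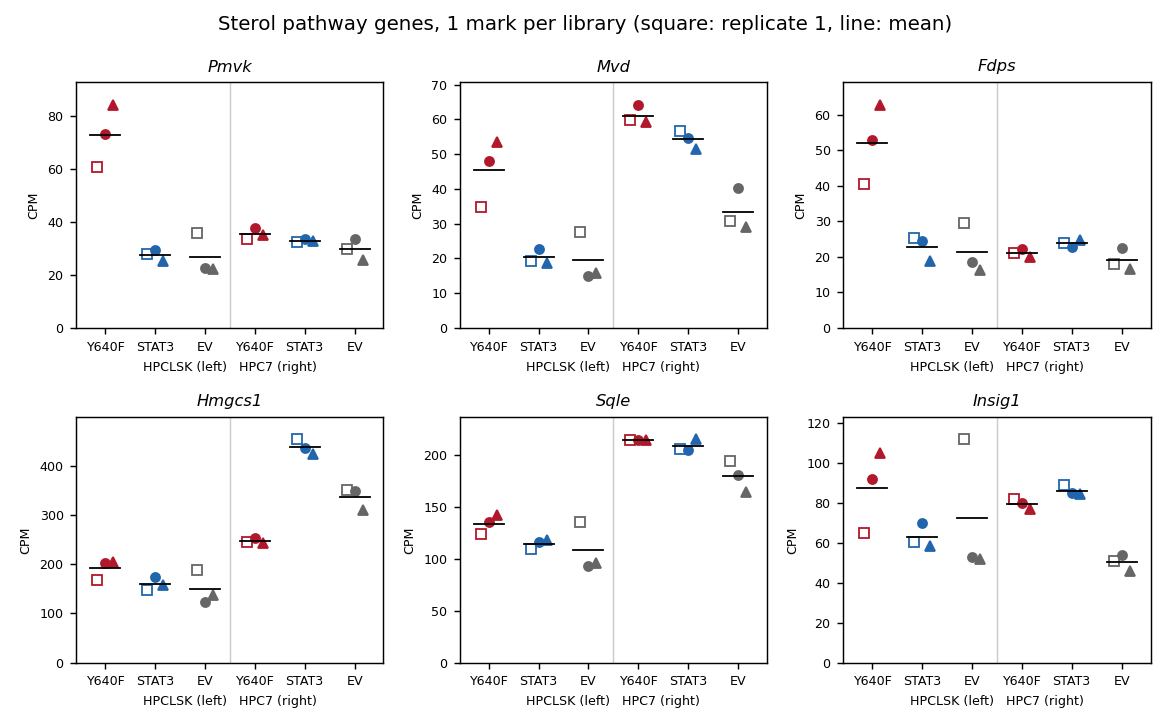
CPM (vertical axis, linear from 0) of 6 sterol pathway genes in each library, with HPCLSK left of the grey line and HPC7 right of it, and Y640F, STAT3 and EV from left to right within a line. Open squares are replicate 1, filled marks replicates 2 and 3, and black bars group means; Pmvk, Mvd and Fdps with Y640F stand above every other HPCLSK library, and Hmgcs1 stands highest with STAT3 in HPC7.

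Of the 11 squalene and sterol steps, 5 rose with Y640F in HPCLSK and 0 fell, and none was called. Hsd17b7, a ketosteroid reductase of the pathway, had 26.4, 29.9 and 27.9 CPM with Y640F, 20.2, 23.7 and 17.1 with STAT3 and 20.2, 11.9 and 14.2 with EV, without overlap between any Y640F and EV library. Its log2 fold change over EV was 0.89 ± 0.18, adjusted p = 0.00178. Fdft1, the squalene synthase, had 40.1, 45.5 and 42.2 CPM with Y640F, 28.1, 31.6 and 27.1 with STAT3 and 33.9, 24.5 and 23.5 with EV. All Y640F libraries of Fdft1 lay above the other 6, and its log2 fold change over EV was 0.66 ± 0.13, adjusted p = 0.000986. Msmo1, the sterol C4 oxidase, rose by 0.69 over EV (adjusted p = 0.00423), and Ebp, a sterol isomerase, by 0.25 (adjusted p = 0.00888). Sc5d, the sterol desaturase, had 36.98, 41.4 and 44.1 CPM with Y640F, 33.7, 31.5 and 28.1 with STAT3 and 40.6, 25.99 and 26.2 with EV, and rose by 0.42 over EV (adjusted p = 0.049) with groups that overlapped through EV replicate 1. Sqle, the squalene epoxidase that is a rate-setting step, had 123, 136 and 142 CPM with Y640F, 109, 116 and 118 with STAT3 and 136, 92.6 and 96.03 with EV. Lss, the lanosterol synthase, had 63.6, 84.2 and 96.5 CPM with Y640F, 52.2, 56.7 and 49.4 with STAT3 and 85.2, 44.7 and 50.04 with EV. Neither passed against EV (0.32 ± 0.13, adjusted p = 0.0658 for Sqle and 0.47 ± 0.26, adjusted p = 0.162 for Lss), and in both genes EV replicate 1 reached into the Y640F range. Cyp51, Tm7sf2, Nsdhl and Dhcr7, enzymes that remove methyl groups from the sterol or reduce its double bonds, differed from EV by 0.33, 0.16, 0.43 and -0.16, none of which passed.

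Among the regulators, Srebf1, which encodes SREBP1, rose with Y640F. It had 231, 329 and 341 CPM with Y640F, 158, 161 and 154 with STAT3 and 242, 158 and 149 with EV, so that Y640F replicate 1 lay below EV replicate 1 and above the other EV libraries. The log2 fold change was 0.73 ± 0.21, adjusted p = 0.0218 over EV and 0.93 ± 0.22, adjusted p = 0.00855 over STAT3 by edgeR's quasi-likelihood test. Srebf2, which encodes SREBP2, had 458, 521 and 539.6 CPM with Y640F, 458, 482 and 440.2 with STAT3 and 529.9, 426 and 433 with EV and did not pass against either (0.14 ± 0.09, adjusted p = 0.2 over EV). Insig1, itself a target of SREBP as well as its brake, had 64.7, 91.98 and 105 CPM with Y640F, 60.5, 70.0 and 58.6 with STAT3 and 112, 53.04 and 51.7 with EV. EV replicate 1 was the highest of these 9 libraries, and the difference from EV did not pass (0.30 ± 0.33, adjusted p = 0.475). Scap fell by 0.23 over EV (adjusted p = 0.00212), the only member that fell. Insig2 (0.03) and Stard4, a carrier of sterol between membranes (0.09), did not pass.

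The desaturase Scd1 differed most of all members. It had 6.80, 62.6 and 95.9 CPM in the Y640F libraries, 0.163, 0.0475 and 0 in the STAT3 libraries and 0.223, 0.0891 and 0 in the EV libraries. In counts, the 3 Y640F libraries held 3020 reads on Scd1, the STAT3 libraries 3 and the EV libraries 5. The level with Y640F was 635 times that with EV (95% interval 272 to 1960) and 856 times that with STAT3 (293 to 4150), intervals that cover counting error only. Scd1 entered the test only through its Y640F libraries and had to differ there, so no test is given for it, although it is 1 of the 5 members called over EV and of the 7 called over STAT3. Y640F replicate 1, at 6.80 CPM, was the lowest of its group and still above all 6 other HPCLSK libraries. Scd2 had 871, 1863 and 1864 CPM with Y640F, 376, 448 and 345 with STAT3 and 1160, 339 and 292 with EV. EV replicate 1 exceeded Y640F replicate 1, and Scd2 was called over STAT3 (1.98 ± 0.61, adjusted p = 0.0329) and did not pass over EV (1.37 ± 0.60, adjusted p = 0.0928). The Scd genes resemble each other in sequence, and reads that fit several of them may be missing from the counts of each.

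**Figure D3:**
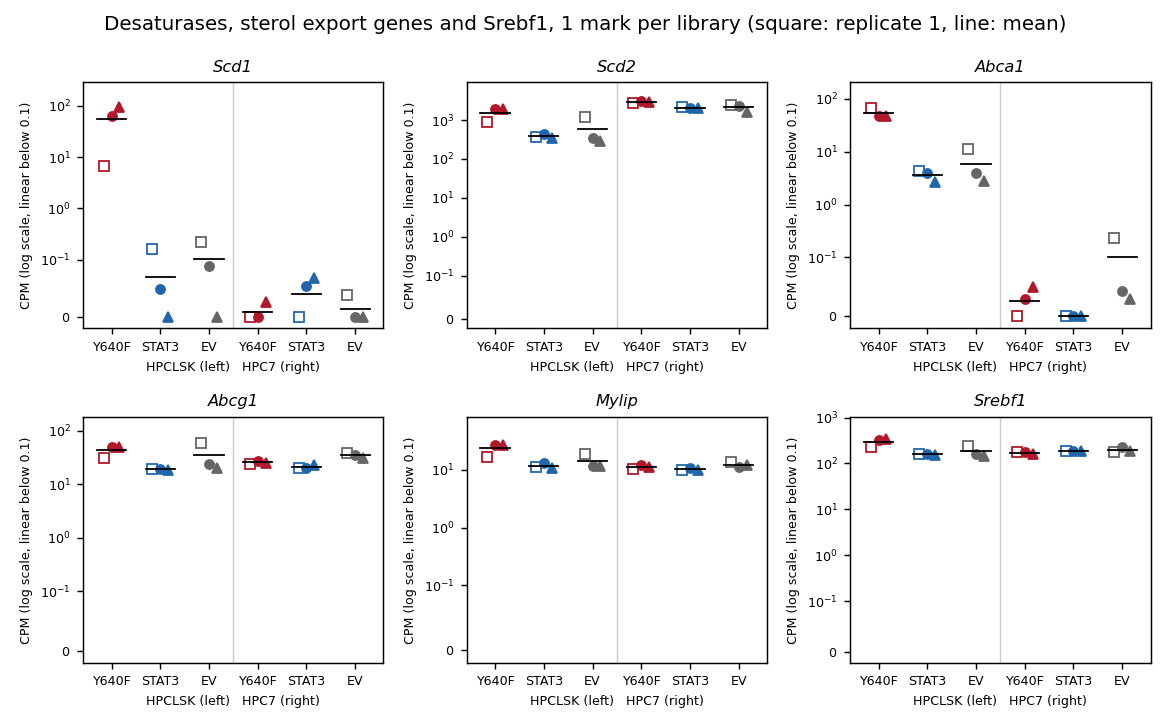
CPM of 6 members in each library on a vertical log axis that is linear below 0.1 and shows 0, with HPCLSK left of the grey line and HPC7 right of it, and Y640F, STAT3 and EV from left to right within a line. Open squares are replicate 1, filled marks replicates 2 and 3, and black bars group means; Scd1 is above 1 CPM only in the 3 HPCLSK Y640F libraries, and Abca1 is above 1 CPM in HPCLSK and below it in HPC7.

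Of the 6 other genes of fatty acid synthesis, 4 rose over EV, each by less than 2-fold. Fasn, the fatty acid synthase, had 595, 847 and 871 CPM with Y640F, 479.8, 474 and 479.8 with STAT3 and 653, 485 and 467 with EV. Elovl6, which lengthens palmitate to stearate, had 66.4, 80.5 and 88.3 CPM with Y640F, 38.95, 44.01 and 42.1 with STAT3 and 55.2, 43.4 and 40.8 with EV. Fads2, the delta-6 desaturase of polyunsaturated fatty acids, had 123, 198 and 218 CPM with Y640F, 102, 106 and 109 with STAT3 and 149, 92.3 and 89.8 with EV. Elovl6 stood higher in each Y640F library than in any other HPCLSK library, whereas in Fasn and Fads2 EV replicate 1 lay above Y640F replicate 1. Over EV, edgeR's quasi-likelihood test gave 0.77 ± 0.13, adjusted p = 0.000546 for Elovl6, 0.54 ± 0.17, adjusted p = 0.0257 for Fasn and 0.72 ± 0.26, adjusted p = 0.0495 for Fads2. Acaca, the acetyl-CoA carboxylase that commits carbon to this route, rose by 0.48 (adjusted p = 0.000648). Fads1, the delta-5 desaturase, had 130.4, 161 and 174 CPM with Y640F, 97.6, 107 and 103 with STAT3 and 163, 113 and 117 with EV, and rose over STAT3 (0.60 ± 0.16, adjusted p = 0.0116) but did not pass over EV (0.26 ± 0.15, adjusted p = 0.182). Acly did not pass against EV (0.15) or STAT3 (0.16).

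Of the LXR targets, Abca1, the pump that loads cholesterol onto lipoprotein, had 68.3, 47.1 and 46.4 CPM with Y640F, 4.39, 3.90 and 2.68 with STAT3 and 11.2, 3.88 and 2.77 with EV. The Y640F libraries all lay above the other 6, and here Y640F replicate 1 was the highest of its group. The log2 fold change was 3.27 ± 0.45, adjusted p = 0.000556 over EV and 3.85 ± 0.48, adjusted p = 0.00044 over STAT3. Abcg1, which exports sterol to lipoprotein particles, had 31.3, 50.7 and 50.8 CPM with Y640F, 19.7, 19.6 and 18.3 with STAT3 and 60.1, 23.5 and 20.1 with EV. EV replicate 1 was the highest of these 9 libraries, and Abcg1 did not pass over EV (0.39 ± 0.43, adjusted p = 0.461) or over STAT3 (1.21 ± 0.45, adjusted p = 0.0577). Mylip, a ubiquitin ligase that turns over lipoprotein receptors, had 16.4, 26.6 and 27.1 CPM with Y640F, 10.98, 13.02 and 10.6 with STAT3 and 18.8, 11.4 and 11.7 with EV. Mylip rose over EV (0.78 ± 0.24, adjusted p = 0.0198) and was called over STAT3 (1.01 ± 0.25, adjusted p = 0.0073), with EV replicate 1 above Y640F replicate 1.

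Without HPCLSK EV replicate 1 and HPCLSK Y640F replicate 1, 33 of the 35 members rose with Y640F over EV, 1 fell and 12 were called higher, where 28.2% of all tested genes rose, 28.6% fell and 9.03% were called higher. All 18 cholesterol enzymes were among those that rose, Pmvk by 1.81, Mvd by 1.71 and Fdps by 1.72, and the members' median log2 fold change was 0.84. Abca1 then stood at 3.77, Scd2 at 2.55, Abcg1 at 1.20, Mylip at 1.20, Srebf1 at 1.11 and Insig1 at 0.90, all passed, and Dhcr7 at 0.21, passed, where it was -0.16 with all libraries. Over STAT3, 31 members rose, 2 fell and 9 were called higher, where 27.5%, 27.4% and 7.47% of all tested genes were, with Pmvk at 1.49, Scd2 at 2.24, Abca1 at 3.62 and Abcg1 at 1.38. Leaving out EV replicate 1 alone gave 29 members that rose and 9 called higher, where 1236 of 12815 tested genes were called higher. Leaving out EV replicate 2 alone gave 12 members that rose. The share of all tested genes that rose was not counted in fits without 1 library. Of the 20 members that passed over EV, 13 did so whichever library was left out; Acat2, Fasn, Fads2, Srebf1 and Mylip did not pass without EV replicate 2 or 3 or Y640F replicate 2 or 3, Idi1 did not pass without EV replicate 2, and Sc5d passed in 1 of the 6 such fits, that without EV replicate 1. Acat2, Fads2 and Scd2 passed over STAT3 with all libraries and without Y640F replicate 1, and in no fit without another of the 6 libraries, and Mylip fell short of 2-fold without STAT3 replicate 1 or 3 or Y640F replicate 2 or 3.

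**Figure D4:**
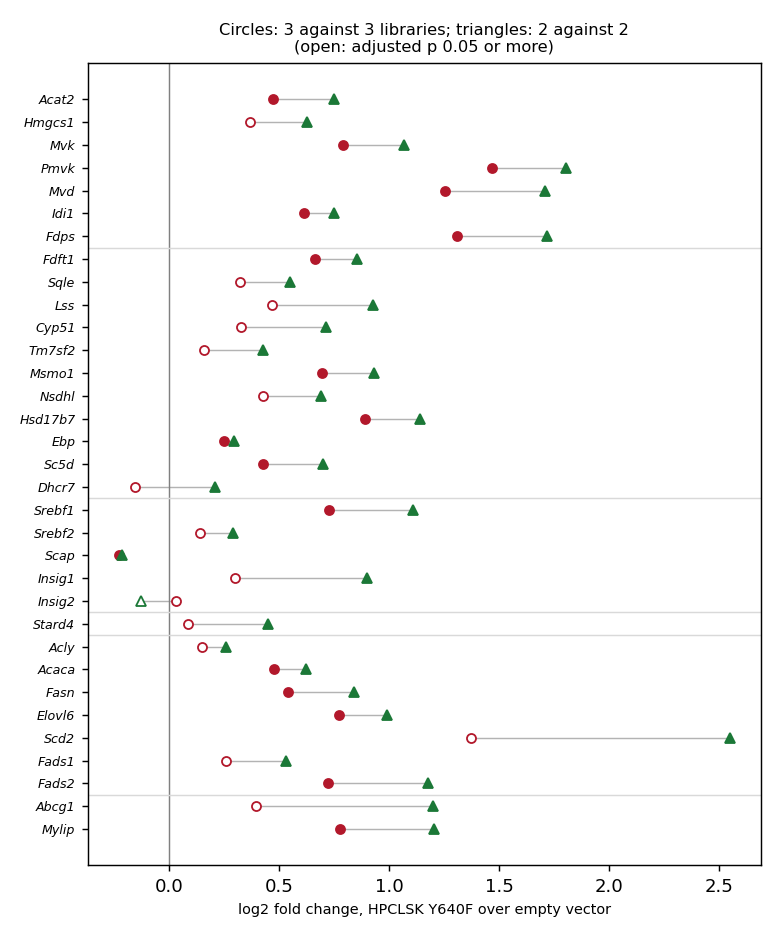
Log2 fold change of 33 members with Y640F over EV in HPCLSK (horizontal axis), with all 6 libraries of the 2 groups (red circles) and without replicate 1 of each (green triangles); Scd1 and Abca1 are left out for scale. Filled marks had adjusted p under 0.05, and the triangles lie right of the circles for all but Insig2.

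Marker genes of myeloid cells moved in the same HPCLSK comparison. Of 9 markers of differentiated myeloid cells, 5 were called higher with Y640F than with EV and 1 fell, and the 5 were the macrophage growth factor receptor Csf1r (3.48 ± 0.53), the lipopolysaccharide co-receptor Cd14 (3.88 ± 0.35), the integrin Itgam (2.30 ± 0.19) and the calcium-binding S100a8 (4.52 ± 0.47) and S100a9 (3.90 ± 0.53). The granule protease Ctsg fell (-0.54 ± 0.14), and Mpo (-0.75 ± 0.31), Ly6c2 (-0.86 ± 0.39) and Elane (0.77 ± 0.53) did not pass. Over STAT3, 4 of the 9 were called higher, and 4 fell: Ly6c2 (-2.94 ± 0.39), Elane (-1.57 ± 0.52), Mpo (-1.27 ± 0.31) and Ctsg (-0.80 ± 0.14). The summed level of the 9 was 13640 to 17330 CPM with Y640F, 13480 to 20190 CPM with STAT3 and 7344 to 11580 CPM with EV. Of 10 stem and progenitor genes, 2 rose and 5 fell, with Kit (-1.51 ± 0.09) and Cd34 (-1.25 ± 0.08) called lower and Ly6a called higher (3.68 ± 0.14), and summed levels of 2984 to 3416 CPM with Y640F, 4450 to 4857 CPM with STAT3 and 5191 to 5613 CPM with EV. Of 12 proliferation genes, 9 rose and 1 fell, with summed levels of 4692 to 5133 CPM with Y640F, 3749 to 3817 CPM with STAT3 and 3389 to 3644 CPM with EV. Of 7 erythroid and megakaryocytic genes, 3 were tested and 2 called lower, with summed levels of 456.6 to 706.9 CPM with Y640F, 782 to 891.3 CPM with STAT3 and 1176 to 1674 CPM with EV. The part of these lists in the lipid gene results was not tested.

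A wider list of 35 other lipid genes was counted beside the members. In HPCLSK with Y640F over EV, 34 were tested. Of these 14 rose, 6 fell and 7 were called higher, where 30.5%, 27.8% and 9.57% of all tested genes were. Those called were Nr1h3, which encodes LXR alpha (2.22 ± 0.38, 3.99 CPM with Y640F and 0.86 CPM with EV), Acacb, a mitochondrial acetyl-CoA carboxylase (3.43 ± 0.39), and the acyl-CoA synthetase Acsl1 (1.20 ± 0.21). The triglyceride synthases Dgat2 (3.38 ± 0.30) and Dgat1 (1.22 ± 0.12), the lipoprotein receptor Scarb1 (1.62 ± 0.08) and the lysosomal lipase Lipa (1.23 ± 0.33) were called as well. Over STAT3, 15 rose, 4 fell and 7 were called higher, where 28.4%, 25.2% and 8.09% of all tested genes were. The 7 were Nr1h3 (2.40), Acacb (3.10), Dgat2 (1.26), Scarb1 (1.48), Lipa (1.04), the acyl-CoA synthetase Acsl4 (1.11) and the lipoprotein receptor Vldlr (1.90). Of the 6 other genes of sterol and isoprenoid synthesis on that list, 2 rose and 1 fell with Y640F over EV, within -0.40 to 0.25. Over STAT3 these 6 differed by at most 0.12 upward (Ggps1) and none of them passed.

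With wild-type STAT3 in HPCLSK, no member passed against EV by edgeR's quasi-likelihood test, where 7.5% of all tested genes rose and 6.32% fell, and 2.71% were called higher and 1.78% lower. At an unadjusted p under 0.05 there were 2 members higher and 1 lower, and DESeq2 gave 0 in both directions. Among the largest differences were Abcg1 (-0.82 ± 0.45, adjusted p = 0.306), Scd2 (-0.61 ± 0.60, adjusted p = 0.581), Abca1 (-0.58 ± 0.56, adjusted p = 0.575) and Hsd17b7 (0.44 ± 0.18, adjusted p = 0.155), and in Abcg1, Fads1 (-0.34 ± 0.16, adjusted p = 0.201) and Ebp (-0.23 ± 0.07, adjusted p = 0.055) all STAT3 libraries lay below all EV libraries, and in Insig2 (0.29 ± 0.12, adjusted p = 0.127) above them. All 8 fatty acid genes and all 3 LXR targets had a negative estimate, and 14 of the 18 cholesterol enzymes a positive one. HPCLSK EV replicate 1 lay above both others of its group for 33 of the 35 members. Leaving it out therefore raises most of the members' estimates over EV by construction, and the values without it are a description. Without the 2 libraries that stand apart, 14 members rose and 1 fell, where 10.3% and 8.85% of all tested genes did, and 12 of those that rose were cholesterol enzymes. Pmvk was then at 0.32, Mvd at 0.42 and Sqle at 0.28, and Fads2 and Insig1 passed at 0.22 and 0.28 where they were -0.05 and -0.17 with all libraries. Leaving out EV replicate 1 alone gave 3 members that rose, and the share of all tested genes that rose in that fit was not counted. Of the other lipid genes, Dgat2 was called higher (2.11 ± 0.31) and Vldlr lower (-1.98 ± 0.23).

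In HPC7, both forms of STAT3 were accompanied by small rises of sterol genes, all under 2-fold. With Y640F, 17 of the 33 members tested rose over EV and 6 fell, where 29.4% and 27.7% of all tested genes did. With STAT3, 14 rose and 4 fell, where 23.3% and 25.2% did. No member was called in either comparison, where 4.55% of tested genes were called higher and 3.63% lower with Y640F, and 1.8% higher and 5.41% lower with STAT3; DESeq2 called 0 as well, and at an unadjusted p under 0.05 there were 20 members higher and 7 lower with Y640F and 16 higher and 5 lower with STAT3. Of the 18 cholesterol enzymes, 12 rose and 3 fell with Y640F, and 11 rose and 3 fell with STAT3. The 2 comparisons share the EV libraries, whose spread was wide. The 9 differentiated myeloid markers summed to 125.2 to 145.7 CPM with Y640F, 262.9 to 286.5 CPM with STAT3 and 326.8 to 669.3 CPM with EV, and the 12 proliferation genes to 3842 to 3908 CPM, 4187 to 4256 CPM and 3990 to 4070 CPM in the same groups. The 7 erythroid and megakaryocytic genes summed to 339 to 354.9 CPM with Y640F, 589.5 to 618.2 CPM with STAT3 and 315.8 to 361.5 CPM with EV, with 4 higher and 1 lower of the 6 tested with Y640F and 2 higher and 1 lower with STAT3, and the part of the 3 lists in the HPC7 results was not tested. Scd1 and Abca1 were too low to test, with 1, 4 and 1 counts of Scd1 and 3, 0 and 8 counts of Abca1 in all Y640F, STAT3 and EV libraries together.

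Mvd rose most with Y640F, with 59.9, 64.2 and 59.1 CPM in Y640F libraries, 56.7, 54.6 and 51.6 in STAT3 libraries and 30.7, 40.1 and 28.9 in EV libraries. Both STAT3 forms lay above all EV libraries without overlap, at 0.91 ± 0.10, adjusted p = 7.34e-06 with Y640F and 0.72 ± 0.10, adjusted p = 7.3e-05 with STAT3. Lss had 229, 249.5 and 237 CPM with Y640F, 242, 229 and 234 with STAT3 and 150.5, 174 and 131 with EV. Insig1 had 81.7, 79.9 and 76.9 CPM with Y640F, 88.8, 84.9 and 84.3 with STAT3 and 50.9, 53.9 and 45.9 with EV. Neither gene overlapped with EV: Lss rose by 0.67 with Y640F and 0.63 with STAT3, and Insig1 by 0.68 and 0.78, with adjusted p = 1.77e-05, 4.12e-05, 1.47e-07 and 6.41e-08 by edgeR's quasi-likelihood test. Cyp51, the lanosterol demethylase, rose by 0.54 with Y640F and 0.79 with STAT3. The genes of chromosome 5, where Mvk, Cyp51 and Insig1 lie, had a median log2 fold change of 0.33 with Y640F and 0.36 with STAT3 over EV, and the part of that shift in their values was not tested. Sqle had 214, 214 and 214 CPM with Y640F, 206, 205 and 215 with STAT3 and 194, 181 and 164 with EV, and rose by 0.28 and 0.22. Rises with both forms were also seen for Mvk (0.52 with Y640F and 0.27 with STAT3), Msmo1 (0.64 and 0.42) and Nsdhl (0.28 and 0.29).

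Hmgcs1 went in opposite directions with the 2 forms. It had 246, 253 and 242 CPM with Y640F, 454, 437 and 423 with STAT3 and 352, 348 and 309 with EV, and no group overlapped with another. It fell with Y640F (-0.43 ± 0.05, adjusted p = 5.84e-06), rose with STAT3 (0.38 ± 0.05, adjusted p = 2.32e-05) and was lower with Y640F than with STAT3 (-0.81 ± 0.05, adjusted p = 1.27e-08). Tm7sf2, a sterol reductase, showed the reverse, rising with Y640F (0.22 ± 0.08, adjusted p = 0.0222) and falling with STAT3 (-0.28 ± 0.08, adjusted p = 0.00916). The genes of chromosome 19, where Tm7sf2, Scd2, Fads1 and Fads2 lie, had a median of 0.24 with Y640F and 0.10 with STAT3 over EV, and its part in their values was not tested. Hsd17b7 had 63.0, 63.8 and 61.3 CPM with Y640F, 68.9, 68.2 and 64.6 with STAT3 and 94.7, 77.1 and 73.4 with EV. It fell with Y640F (-0.36 ± 0.08, adjusted p = 0.00213) and with STAT3 (-0.28 ± 0.08, adjusted p = 0.0127), beside a median of -0.34 and -0.35 over the genes of its chromosome 1. Ebp fell by 0.37 with Y640F and by 0.35 with STAT3. Fdps had 20.98, 22.2 and 20.0 CPM with Y640F, 24.0, 22.9 and 24.8 with STAT3 and 17.98, 22.6 and 16.6 with EV. It rose with STAT3 (0.34 ± 0.09, adjusted p = 0.00855), all STAT3 libraries lying above all EV libraries, and did not pass with Y640F (0.17 ± 0.09, adjusted p = 0.131), which overlapped with EV. Pmvk had 33.3, 37.5 and 34.9 CPM with Y640F, 32.4, 33.5 and 32.6 with STAT3 and 29.6, 33.5 and 25.7 with EV, and rose with Y640F (0.28 ± 0.08, adjusted p = 0.00929) although 1 EV library lay within the Y640F range. Fdft1 had 62.4, 72.7 and 67.97 CPM with Y640F, 65.7, 66.04 and 67.2 with STAT3 and 57.4, 59.9 and 48.7 with EV and rose by 0.32 and 0.27.

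Acat2 in HPC7 had 87.1, 85.9 and 84.6 CPM with Y640F, 75.7, 73.0 and 74.6 with STAT3 and 74.01, 72.7 and 61.8 with EV, and rose with Y640F (0.33 ± 0.06, adjusted p = 0.000285). Idi1 rose with Y640F as well (0.47) and did not pass with STAT3 (0.26). Sc5d had 71.5, 70.4 and 71.4 CPM with Y640F, 74.3, 72.6 and 72.9 with STAT3 and 69.8, 67.3 and 63.8 with EV, and rose with STAT3 (0.13 ± 0.04, adjusted p = 0.023) and did not pass with Y640F (0.11 ± 0.04, adjusted p = 0.0512). Dhcr7 did not pass with Y640F (0.14) or STAT3 (0.11). The rises of Mvk and Sc5d with STAT3 and of Tm7sf2 with Y640F did not pass in some fits that left out 1 library: Mvk without EV replicate 3 or STAT3 replicate 1, Sc5d without these or STAT3 replicate 2, and Tm7sf2 without EV replicate 3 or Y640F replicate 2 or 3. When all 18 libraries entered the fit, 11 members rose with Y640F and 9 rose and 1 fell with STAT3. These are fewer rises than the 17 and 14 in the fit of HPC7 alone. The share of all tested genes that passed was not counted in the fit of all libraries, so these counts have no background beside them.

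Of the HPC7 regulators, Srebf2 had 481, 469 and 453 CPM with Y640F, 593, 586 and 586 with STAT3 and 468, 547 and 482 with EV, and rose with STAT3 (0.24 ± 0.05, adjusted p = 0.00101) but not with Y640F (-0.07 ± 0.05, adjusted p = 0.211). Srebf1 had 178, 174 and 161 CPM with Y640F, 192, 184 and 186 with STAT3 and 179, 234 and 186 with EV, lay lower with Y640F than in either other group without overlap, and passed in neither (-0.20 ± 0.08, adjusted p = 0.0524 with Y640F). Scap fell with Y640F (-0.33 ± 0.06) and did not pass with STAT3 (0.02 ± 0.06), and neither Insig2 (0.18 and 0.10) nor Stard4 (-0.01 and 0.05) passed with either. Fads1 had 488, 499.8 and 487 CPM with Y640F, 445, 438 and 440.4 with STAT3 and 322, 326 and 289.6 with EV. It rose with both forms (0.67 ± 0.04, adjusted p = 1.98e-08 with Y640F and 0.50 ± 0.04, adjusted p = 5.42e-07 with STAT3), all libraries of both lying above EV. Fads2 had 379, 418 and 376 CPM with Y640F, 401, 394 and 405 with STAT3 and 357, 394 and 311 with EV and passed in neither. Scd2 had 2761, 3085 and 2888 CPM with Y640F, 2151, 2020 and 2028 with STAT3 and 2440, 2319 and 1628 with EV, and rose with Y640F (0.47 ± 0.14, adjusted p = 0.0185). Fasn had 1077, 898 and 867 CPM with Y640F, 860.3, 857 and 833 with STAT3 and 715, 816 and 723 with EV, and rose with Y640F (0.35 ± 0.07, adjusted p = 0.00128). Elovl6 had 136, 143 and 137 CPM with Y640F, 128, 119.9 and 124 with STAT3 and 131, 127 and 121 with EV, and rose with Y640F as well (0.15 ± 0.04, adjusted p = 0.00786). In both genes all Y640F libraries lay above all libraries of the other groups. Acly fell with Y640F (-0.25 ± 0.04) and Acaca did not pass (-0.09 ± 0.04).

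Abcg1 fell in HPC7 with both forms. It had 24.02, 27.3 and 25.5 CPM with Y640F, 20.5, 19.8 and 22.9 with STAT3 and 37.9, 35.2 and 31.2 with EV, and all EV libraries lay above the other 6. The log2 fold change over EV was -0.42 ± 0.08, adjusted p = 0.000461 with Y640F and -0.72 ± 0.08, adjusted p = 5.5e-06 with STAT3. Mylip had 10.2, 12.2 and 10.9 CPM with Y640F, 10.1, 10.8 and 9.85 with STAT3 and 13.5, 10.9 and 11.8 with EV and passed in neither (-0.10 and -0.24). Between the forms, 8 members were higher with Y640F than with STAT3 and 5 lower, where 26.9% and 24.1% of all tested genes were, so the members' share lay near or below the background. None was called by edgeR or DESeq2, where 6.16% and 1.73% of all tested genes were called higher and lower by edgeR, and 9 members were higher and 5 lower at an unadjusted p under 0.05. Scd2 (0.51 ± 0.14, adjusted p = 0.014) and Tm7sf2 (0.51 ± 0.08, adjusted p = 7.66e-05) were the largest rises and Hmgcs1 the largest fall. With all 18 libraries in the fit 1 member passed higher. Of 31 other lipid genes tested in HPC7, Rxra, the partner of LXR, was the most changed: it averaged 38.6 ± 0.933 CPM with Y640F, 4.06 ± 0.47 with STAT3 and 17.8 ± 2.09 with EV, called higher with Y640F (1.14 ± 0.08) and lower with STAT3 (-2.12 ± 0.10). Acss2, which makes acetyl-CoA from acetate, was called higher with Y640F over EV (1.06 ± 0.10) beside a median of 0.47 over its chromosome 2, and also over STAT3 (1.06 ± 0.10). Soat1, which stores cholesterol as ester, was called higher with Y640F over STAT3 (1.30 ± 0.09), as was Rxra (3.26 ± 0.09). In all, 12 of the other genes rose and 10 fell with Y640F, where 29.4% and 27.7% of all tested genes did. With STAT3, 6 rose and 11 fell, where 23.3% and 25.2% did.

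With empty vector alone, HPCLSK held less RNA of most members than HPC7. Of the 35 members, 22 were lower in HPCLSK and 2 higher, where 39% and 41.5% of all tested genes were, and 10 were called lower and 1 higher, where 13.6% and 22.7% were. The members' median log2 fold change was -0.61. Of the 18 cholesterol enzymes 14 were lower, 6 of them called, and of the 8 fatty acid genes 7 were lower, 4 of them called. All 24 passed whichever library was left out. Abca1 is among them and is the 1 called higher, but it entered the fit through HPCLSK, where it is high, so its pass is no evidence.

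The EV levels of the called genes, listed above library by library, did not overlap between the lines. Hsd17b7 differed most downward, at 11.9 to 20.2 CPM in HPCLSK against 73.4 to 94.7 CPM in HPC7 (-2.44 ± 0.15, adjusted p = 9.7e-11). Scd2 followed, at 292 to 1160 CPM against 1628 to 2440 CPM (-1.84 ± 0.45, adjusted p = 0.00224), with HPCLSK EV replicate 1 closest to HPC7. Fads2 (-1.69 ± 0.21, adjusted p = 4.08e-06), Elovl6 (-1.45 ± 0.10, adjusted p = 8.76e-11), Lss (-1.36 ± 0.20, adjusted p = 2.82e-05) and Acat2 (-1.27 ± 0.13, adjusted p = 1.69e-07) came next by edgeR's quasi-likelihood test. Fads1 (-1.26 ± 0.12), Hmgcs1 (-1.17 ± 0.12), Sc5d (-1.13 ± 0.12) and Fdft1 (-1.03 ± 0.11) were called too, and Fdft1 fell short of a 2-fold difference without HPC7 EV replicate 2 or HPCLSK EV replicate 2 or 3. Abca1 was the 1 member called higher in HPCLSK, with 11.2, 3.88 and 2.77 CPM against 0.232, 0.0427 and 0.0291 CPM in HPC7, where 8 counts in all stand behind it. The ratio was 56 with a 95% counting interval of 28 to 131, and no test is given because Abca1 entered the fit of all libraries through HPCLSK, where it is high. Insig2 was the other that was higher (0.42 ± 0.10), and of the regulators Scap was lower (-0.60 ± 0.06) while Insig1 did not pass (0.51 ± 0.25). Srebf1 (-0.13 ± 0.17), Srebf2 (-0.11 ± 0.08), Pmvk (-0.16 ± 0.16) and Fdps (0.16 ± 0.20) did not pass, and genes of chromosome 3, which carries Pmvk, Fdps and Elovl6, had a median of 0.92 higher in HPCLSK. Without HPCLSK EV replicate 1, 27 members were lower and 14 called lower, where 1986 of 14202 tested genes were called lower. That library lay above its group for most members, so leaving it out widens the members' differences by construction. The 9 markers of differentiated myeloid cells were all called higher in HPCLSK, where 22.7% of all tested genes were. Only 5 of the 9 were tested in HPC7 alone. The others entered the fit of all libraries through HPCLSK, where they are high, so their calls are no evidence. The summed levels of the 9 were 7344 to 11580 CPM in HPCLSK against 326.8 to 669.3 CPM in HPC7, and their part in these differences was not tested.

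**Figure D5:**
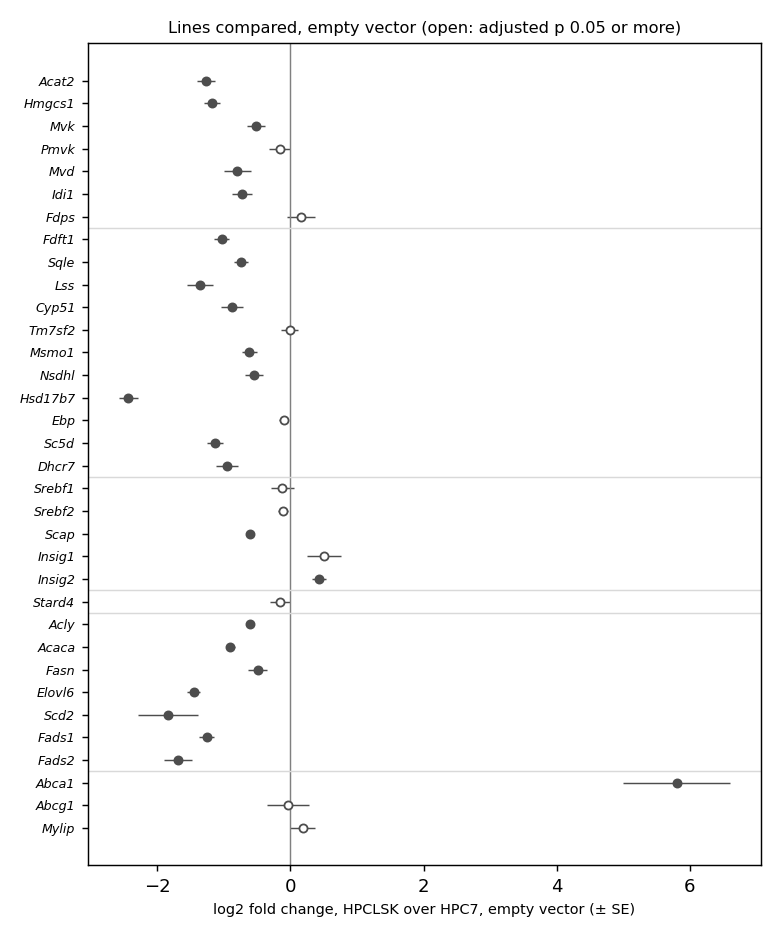
Log2 fold change of HPCLSK over HPC7 with empty vector (horizontal axis, ± SE) for 34 members by role, filled where adjusted p was under 0.05; Scd1 is left out because its 6 libraries held 6 counts in all. Most sterol and fatty acid genes lie left of 0, and the regulators lie on both sides of 0. Abca1 lies at 5.80, and its mark is not read as a test because it entered the fit through HPCLSK.

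Among the other lipid genes at this baseline, 16 of 34 tested were higher and 14 lower in HPCLSK, near the 41.5% and 39% of all tested genes. Of the 34, 10 were called higher and 2 lower, where 22.7% and 13.6% of all tested genes were. Vldlr held 9569 counts in HPCLSK EV and 0 in HPC7 EV, at least 5015-fold higher when 3 counts over the group are taken as the floor. Called higher were also Dgat2 (4.66), Nr1h3 (3.48), Rxra (1.98), Acss2 (1.39), the lysosomal sterol carrier Npc2 (1.34), Lipa (1.29), Dgat1 (1.26), Acsl1 (1.18) and the thiolase Acat1 (1.16). Acacb was among those called lower (-4.39). Of the 34 genes, 31 were tested in HPC7 alone. Vldlr, Dgat2 and Nr1h3 stood too low there and entered the fit of all libraries through HPCLSK, where they are high. Their calls are therefore no evidence.

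The responses of the lines were compared directly, as the fold change in HPCLSK minus that in HPC7. For Y640F over EV, 10 of the 35 members had a higher fold change in HPCLSK than in HPC7 and 0 a lower one, where 25.6% and 22.9% of all tested genes did. The upward share thus lay near the background and the downward share below it, for members that passed and for those called. Called upward were 3 members and downward 0, where 7.65% and 7.22% of all tested genes were. These were Hsd17b7 (1.28 ± 0.20, adjusted p = 5.07e-05), which rose in HPCLSK and fell in HPC7 and whose chromosome 1 had a median of 0.33, Pmvk (1.21 ± 0.22, adjusted p = 0.00026) and Fdps (1.15 ± 0.28, adjusted p = 0.0029). Srebf1 (0.94 ± 0.25, adjusted p = 0.00589), Mylip (0.89 ± 0.26, adjusted p = 0.00817), Hmgcs1 (0.81 ± 0.17, adjusted p = 0.000971), Elovl6 (0.63 ± 0.13, adjusted p = 0.000623), Ebp (0.63 ± 0.09, adjusted p = 1.1e-05), Acaca (0.58 ± 0.10, adjusted p = 4.42e-05) and Acly (0.41 ± 0.09, adjusted p = 0.000417) passed as well. Of the members that passed, Hmgcs1, Ebp and Acly fell with Y640F in HPC7. Hmgcs1 and Acly did not pass in HPCLSK, so their difference is not a rise there. Scd1 (9.34 ± 12.92) and Abca1 (4.83 ± 2.39) had large estimates with wide errors, on near-zero counts in HPC7, and did not pass. Fdps fell short of the 2-fold mark without HPCLSK EV replicate 3 or HPCLSK Y640F replicate 3. Without HPCLSK EV replicate 1 alone 21 members passed and 8 were called, where 1056 of 14202 tested genes were called upward. Without HPCLSK Y640F replicate 1 alone 5 were called, where 1010 of 14220 tested genes were. The share of all tested genes that passed was not counted in fits without 1 library. Without both 26 members passed and 11 were called, where 23.7% and 6.96% of all tested genes were.

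Of the 33 members tested in both lines, 17 rose with Y640F over EV in HPCLSK and 17 in HPC7, and 9 of the 33 rose in both, where 11.5% of all genes tested in both lines did. These 9 are 52.9% of each line's list. The 9 were Acat2, Mvk, Pmvk, Mvd, Idi1, Fdft1, Msmo1, Fasn and Elovl6, and Scap fell in both, where 10.5% of all genes tested in both lines did. With STAT3 over EV no member rose or fell in both lines, where 1.35% of these genes rose and 2.21% fell. Ebp and Hsd17b7 rose in HPCLSK and fell in HPC7. For STAT3 over EV, Hsd17b7 (0.74 ± 0.20, adjusted p = 0.0109) and Tm7sf2 (0.54 ± 0.19, adjusted p = 0.031) had a higher fold change in HPCLSK than in HPC7 by edgeR's quasi-likelihood test. Fads1 (-0.84 ± 0.17, adjusted p = 0.00107) and Cyp51 (-0.73 ± 0.24, adjusted p = 0.0357) had a lower one, beside medians of 0.43 over chromosome 1 with Hsd17b7 and -0.35 over chromosome 5 with Cyp51. Of all tested genes, 16.3% had a higher fold change in HPCLSK and 13.8% a lower one. None of the members was called by edgeR or DESeq2 in that difference, where 6.04% of all tested genes were called upward and 2.07% downward by edgeR, and 2 members were up and 5 down at an unadjusted p under 0.05. Of the 4 members that passed, Fads1 did so whichever library was left out, and the counts with 1 library left out ran over 0 to 2 upward and 1 to 6 downward.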

How the data were processed

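RNA was measured by sequencing in 18 libraries, and the 12 chromatin samples of the series were not analysed here. The authors deposited raw counts per gene: 50-base single-end reads were, per the submitters' processing notes, trimmed with Trimmomatic, aligned with STAR to GRCm38/mm10 and counted with featureCounts 1.5.1, whose file headers give strand setting 2. The series text names the GENCODE annotation. Gene identifiers were matched to symbols, and 310 identifiers had none. Counts on genes that resemble each other closely, such as the Scd genes, depend on how the authors' counting treated shared reads.

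The deposited counts were fitted with edgeR 4.0.16 (R 4.3.3): TMM scaling, filterByExpr, robust quasi-likelihood fits and Benjamini-Hochberg adjustment over all genes tested, 12683 in HPC7, 12552 in HPCLSK and 13891 across both. Comparisons within a line used that line's 9 libraries, and comparisons of lines all 18. SE is the log2 fold change divided by the square root of F. CPM and RPKM were computed here from the deposited counts. The scripts were tested on simulated data. DESeq2 1.42.0, other scalings and filters, a replicate block and leaving out libraries were tried as alternatives. Counting intervals cover counting error only. The members, the other lipid genes and the marker lists were chosen with earlier results of these data known. All members were named, with library values for those called in any comparison and for Sqle, Insig1, Srebf1, Srebf2, Fasn and Abcg1, and other lipid genes were named where called, except 1 that is not reported here.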

Additional observations from a re-analysis of the deposited data

Results flagged for a closer look

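Each of the following genes responded differently in the 2 lines, by edgeR's quasi-likelihood test of the difference itself (log2 fold change in HPCLSK minus that in HPC7) with an adjusted p under 0.05 and a difference of at least 2-fold. Among the members, the Y640F response over EV differed by 1.276 for Hsd17b7, 1.205 for Pmvk and 1.154 for Fdps, a share near the 7.65% of all tested genes. Among the other lipid genes the Y640F response over EV differed upward by 4.184 for Dgat2, 3.507 for Acacb, 1.315 for Lipa, 1.284 for Dgat1, 1.17 for Scarb1 and 1.164 for Acsl1. Dgat2 stood low in HPC7 and entered the fit of all libraries through HPCLSK. The size of its difference is therefore uncertain and its pass is no evidence. Without HPCLSK EV replicate 1 and HPCLSK Y640F replicate 1, its EV level was 29.02 times as high in HPCLSK as in HPC7, and its line difference was 3.847 ± 0.919. The Y640F response differed downward for Rxra (-1.74) and Acss2 (-1.361), both called higher with Y640F in HPC7. The STAT3 response over EV differed by 1.902 for Rxra, which was called lower with STAT3 in HPC7, by 1.098 for Dgat1 and by 1.001 for Soat1. The lines also differ in strain label and sequencing run, whose part was not tested.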

How the results depend on the processing

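Of the values of single genes under the alternatives, 4752 stayed on their side of the threshold, 230 no longer passed and 226 newly passed. A change of direction with no pass in either fit was counted among the 4752. Values relative to the chromosome's median were not tested: those near the main value were counted among the 4752, and 48 moved. Another 4 values reversed with a pass in either fit, all 4 without both HPCLSK EV replicate 1 and HPCLSK Y640F replicate 1. These were Insig1 (0.283) and Fads2 (0.218) with STAT3 over EV in HPCLSK, Dhcr7 (0.207) with Y640F over EV in HPCLSK, and Abcg1 (0.531) in the line difference of the STAT3 response.

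Counts of members that moved by more than 1.5 times were the following, and the cause was not tested except where libraries were left out. Without both of these libraries, STAT3 over EV in HPCLSK gave 14 higher and 1 lower, Y640F over EV 33 higher with 12 called, Y640F over STAT3 31 higher and 2 lower, the line difference for STAT3 4 higher and 4 lower with 1 called higher, and that for Y640F 26 higher with 11 called. With all 18 libraries in the fits within a line, HPC7 gave 9 higher and 1 lower with STAT3 over EV, 11 higher with Y640F over EV and 1 higher with Y640F over STAT3, and HPCLSK gave 1 lower with STAT3 over EV and 2 lower with Y640F over STAT3. With no low-count filter, 1 member was called lower with STAT3 over EV in HPC7 and 1 was lower with STAT3 over EV in HPCLSK, while the line difference for STAT3 gave 13 lower and 1 called higher, and that for Y640F 18 higher, 5 lower and 5 called higher. With at least 5 CPM in 3 libraries, 2 members were lower with Y640F over STAT3 in HPCLSK, and 4 were lower in the line difference for STAT3 and 1 in that for Y640F. With upper-quartile scaling, 2 were lower with Y640F over STAT3 in HPCLSK and 1 in the line difference for Y640F. DESeq2 gave 4 lower in the line difference for STAT3, and 1 lower and 5 called higher in that for Y640F. A test against a 1.5-fold change (glmTreat) called 2 higher with STAT3 over EV, 1 higher with Y640F over EV and 1 lower with Y640F over STAT3 in HPC7, and 4 higher with Y640F over STAT3 in HPCLSK.

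The replicate numbers did not pair the libraries: same-numbered deviations from the group means correlated at -0.128 to 0.106 in HPC7 and -0.222 to 0.112 in HPCLSK, with 1 of 9 pairs over 0.1 in each. A replicate block gave 1 member higher in HPCLSK at baseline, and 1 higher and 1 lower in the line difference for STAT3.

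Leaving out 1 library at a time, the members that rose and fell numbered 12 to 29 and 1 to 1 for Y640F over EV in HPCLSK (5 to 9 called higher), 15 to 20 and 1 to 2 for Y640F over STAT3 (5 to 8 called) and 0 to 3 and 0 to 0 for STAT3 over EV. In HPC7 they numbered 16 to 20 and 6 to 7 for Y640F over EV (0 to 1 called higher, the 1 without EV replicate 2), 12 to 18 and 4 to 5 for STAT3 over EV, and 7 to 9 and 5 to 5 for Y640F over STAT3. At baseline 2 to 3 were higher and 22 to 27 lower, with 9 to 14 called lower. The line difference for Y640F gave 10 to 21 higher (2 to 8 called) and 0 to 1 lower, and that for STAT3 0 to 2 higher and 1 to 6 lower (0 to 1 called). Precision is limited by the spread within HPCLSK EV, HPCLSK Y640F and HPC7 EV, and for Scd1 and Abca1 by counts near 0.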
